A study of Mus musculus with 8 samples.

Results

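The transcripts described here are those of 5 red-cell genes, the α-globin genes Hba-a1 and Hba-a2, the β-globin genes Hbb-bs and Hbb-bt, and Alas2. They were found by their symbols in the deposited feature lists and make up 5 of the 32285 features counted. Their raw UMIs (unique molecular identifiers, 1 per captured transcript molecule) were summed in each library over each annotated cell type and over the barcodes that no annotation covers, and were expressed as CPM, which is UMIs per 1000000 UMIs of the same barcodes.

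The study applied single-nucleus RNA sequencing (snRNA-seq) to the petrous temporal bone (PTB) and to the paraflocculus/flocculus (PF/F), the cerebellar lobules that lie in a pocket of that bone. The mice were P5.5 pups, either wild type (WT) or heterozygous for a loss of Tbx1 (Tbx1+/-), a transcription factor gene within the region deleted in 22q11.2 deletion syndrome. Each of the 8 libraries pooled tissue of 5 mice, and each tissue and genotype had 2 libraries, from 2 batches of littermates. Frozen PTB was pulverised and PF/F was only chopped before nuclei were released, so tissue and preparation cannot be told apart.

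Haemoglobin is built from α-globin and β-globin chains that each hold a haem group, and it fills red cells to the near exclusion of other proteins. Alas2 is the erythroid form of 5-aminolevulinate synthase, the enzyme that starts haem synthesis. Red cells arise from marrow precursors that cluster around macrophages and expel their nuclei before they enter the blood, so circulating red cells keep some globin mRNA for a while but have no nucleus of their own. Hbb-bs and Hbb-bt are the pair of adult β-globin genes carried on the haplotype of C57BL/6 mice.

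The 4 globin genes lie in 2 clusters, and their near identity in sequence bears on how far single members can be read. On GRCm38, Hba-a1 (ENSMUSG00000069919) occupies chr11:32283511-32284465 and Hba-a2 (ENSMUSG00000069917) chr11:32296489-32297298, both on the plus strand with 3 exons. Hbb-bs (ENSMUSG00000052305) occupies chr7:103826534-103828096 and Hbb-bt (ENSMUSG00000073940) chr7:103812524-103813996, both on the minus strand with 3 exons. The coding sequences of Hba-a1 and Hba-a2 differed at 1 of 426 bases, and those of Hbb-bs and Hbb-bt at 1 of 441 bases, stop codons left out. All 50-base stretches of the Hba-a1 3′ UTR also occurred in the Hba-a2 transcript models, whereas none of the 3′ UTR stretches of Hbb-bs occurred in those of Hbb-bt. The division of UMIs between Hba-a1 and Hba-a2 is therefore uncertain, and the sum of the 4 globins was used wherever members did not need to be told apart. How reads that match both α-globin copies were counted is not given in the sources used here. The α-globin level and its share of the globin UMIs are therefore uncertain too, which the sum does not mend.

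Alas2 (ENSMUSG00000025270) occupies chrX:150547375-150570638 on the plus strand with 11 exons, wholly inside the span of Apex2, a DNA repair gene on the opposite strand. The last exon of Alas2, 311 of its 2403 exon bases, overlaps exons of Apex2. How the counting used strand is not given in the sources used here, and a read from that exon would be hard to assign without it. The authors also counted reads in introns, so the same holds for the rest of the Alas2 span, all of it within Apex2.

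The 120 bases before each RefSeq start (GRCm38.p6) are shown because they carry the short elements for which globin promoters are known and on which the α-globin copies, the β-globin pair and Alas2 differ. All 5 members were matched in RefSeq, and the windows are chr11:32283552-32283671 for Hba-a1, chr11:32296372-32296491 for Hba-a2, chr7:103827929-103828048 for Hbb-bs, chr7:103813924-103814043 for Hbb-bt and chrX:150547297-150547416 for Alas2, each printed 5′ to 3′ on its own strand. Capitals mark matches on either strand to the motif CACCC, the motif known by its letters CCAAT, the GATA motif GATAA or the TATA-like motif ATATAA.
Hba-a1: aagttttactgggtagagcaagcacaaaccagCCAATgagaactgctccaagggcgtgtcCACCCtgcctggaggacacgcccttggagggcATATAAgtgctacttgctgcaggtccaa
Hba-a2: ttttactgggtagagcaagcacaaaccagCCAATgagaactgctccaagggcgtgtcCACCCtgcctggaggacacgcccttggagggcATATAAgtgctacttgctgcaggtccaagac
Hbb-bs: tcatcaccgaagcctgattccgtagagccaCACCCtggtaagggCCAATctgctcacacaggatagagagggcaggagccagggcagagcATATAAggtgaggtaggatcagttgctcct
Hbb-bt: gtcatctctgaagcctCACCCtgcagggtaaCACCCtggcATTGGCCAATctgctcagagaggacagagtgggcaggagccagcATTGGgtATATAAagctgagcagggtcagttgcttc
Alas2: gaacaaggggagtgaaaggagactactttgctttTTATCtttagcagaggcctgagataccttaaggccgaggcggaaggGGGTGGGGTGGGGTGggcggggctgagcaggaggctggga
The α-globin windows shared an unbroken run of 117 of 120 bases, and the β-globin windows one of 14 bases. The CACCC motif, the CCAAT motif and the TATA-like motif each occurred in the windows of all 4 globins, and Hbb-bt held CACCC at 2 places and ATTGG, the reverse complement of CCAAT, at 2 places. Among 32817 promoter windows of the same length, 31.7% held the CACCC motif, 21.3% the CCAAT motif, 10.5% the GATA motif and 4.47% the TATA-like motif on at least 1 strand. The Alas2 window held GGGTG, the reverse complement of CACCC, at 3 adjacent places and TTATC, that of GATAA, at 1 place. These matches describe letters only.

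The 8 libraries held 10583 to 21868 barcodes and 44713226 to 88677309 UMIs each, and 79313 of all 121135 barcodes were in the deposited annotation. The Tbx1 level in PTB was 39.3 and 46.3 CPM in WT and 27.6 and 40.1 CPM in Tbx1+/- (replicates 1 and 2), lower in Tbx1+/- at each replicate number but overlapping between the genotypes, and in PF/F it was 0.156 to 0.693 CPM, too few UMIs (8 to 38) to check the label. Osteoblast and chondrocyte markers summed to 9110 to 11497 CPM in annotated PTB nuclei and 69.5 to 89.1 CPM in those of PF/F, and neuronal markers to 128 to 164 CPM and 1881 to 2243 CPM, so both tissues matched their labels. Any pair of libraries shared 35 to 94 barcode sequences. Of the barcodes outside the annotation, 18.6 to 29.8% in PTB and 49.5 to 66.0% in PF/F had under 1000 detected genes, the minimum the authors had set, and the remainder carry no cell type label. The PTB annotation holds only the 15 connective tissue (CT), chondrocyte progenitor (CP), cartilage and bone types that the study analysed as a subset of its bone nuclei, whereas that of PF/F holds 16 types of the whole tissue. Barcodes outside the PTB annotation therefore also include nuclei of other kinds that passed the authors' filters, whereas all PF/F nuclei that passed are annotated. The sets compared between tissues, both annotated and outside, are thus not alike in make-up.

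Globin transcripts were found in every library and every annotated type, at higher levels in annotated PTB nuclei than in those of PF/F, while Alas2 was at about the same level in both tissues. In annotated PTB nuclei Hba-a1 was at 164 and 134 CPM in WT and at 109 and 86.4 CPM in Tbx1+/- (replicates 1 and 2). In PF/F it was at 40.9 and 32.1 CPM in WT and at 37.1 and 64.5 CPM in Tbx1+/-. All PTB libraries lay above all PF/F libraries for this α-globin gene. Hba-a2, its near copy, was at 113 and 96.8 CPM in WT and 90.2 and 59.4 CPM in Tbx1+/- in PTB. Its PF/F levels were 29.3 and 23.0 CPM in WT and 28.3 and 48.4 CPM in Tbx1+/-. The tissues did not overlap for Hba-a2 either. The share of all genes without such overlap is not given here.

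Hbb-bs, the β-globin gene with the larger share of UMIs, was at 499.6 and 323 CPM in WT and 359.8 and 228 CPM in Tbx1+/- in annotated PTB nuclei. In PF/F it was at 143 and 102 CPM in WT and 127 and 232 CPM in Tbx1+/-. The lowest PTB library, Tbx1+/- replicate 2, thus lay just under the highest PF/F library, which was also Tbx1+/- replicate 2. Hbb-bt was at 99.0 and 67.9 CPM in WT and 71.8 and 44.8 CPM in Tbx1+/- in PTB. Its PF/F levels were 29.3 and 19.0 CPM in WT and 25.8 and 45.7 CPM in Tbx1+/-. The same libraries met at the border between the tissues.

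Alas2 did not share this pattern. It was at 23.2 and 27.7 CPM in WT and 19.9 and 24.1 CPM in Tbx1+/- in annotated PTB nuclei. In PF/F it was at 21.5 and 30.7 CPM in WT and 22.6 and 24.9 CPM in Tbx1+/-. The tissues overlapped over nearly their whole range, and the highest library was a PF/F library. Over the 4 libraries of a tissue the globins summed to 637 ± 187 CPM (SD, n = 4) in PTB and 257 ± 93.1 CPM in PF/F, whereas Alas2 averaged 23.8 ± 3.22 CPM and 25.0 ± 4.11 CPM. The share of nuclei with at least 1 Hbb-bs UMI was 63.5 to 78.5% in PTB and 29.4 to 42.4% in PF/F, and that for Alas2 8.42 to 13.1% and 6.32 to 11.05%.

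**Figure D1:**
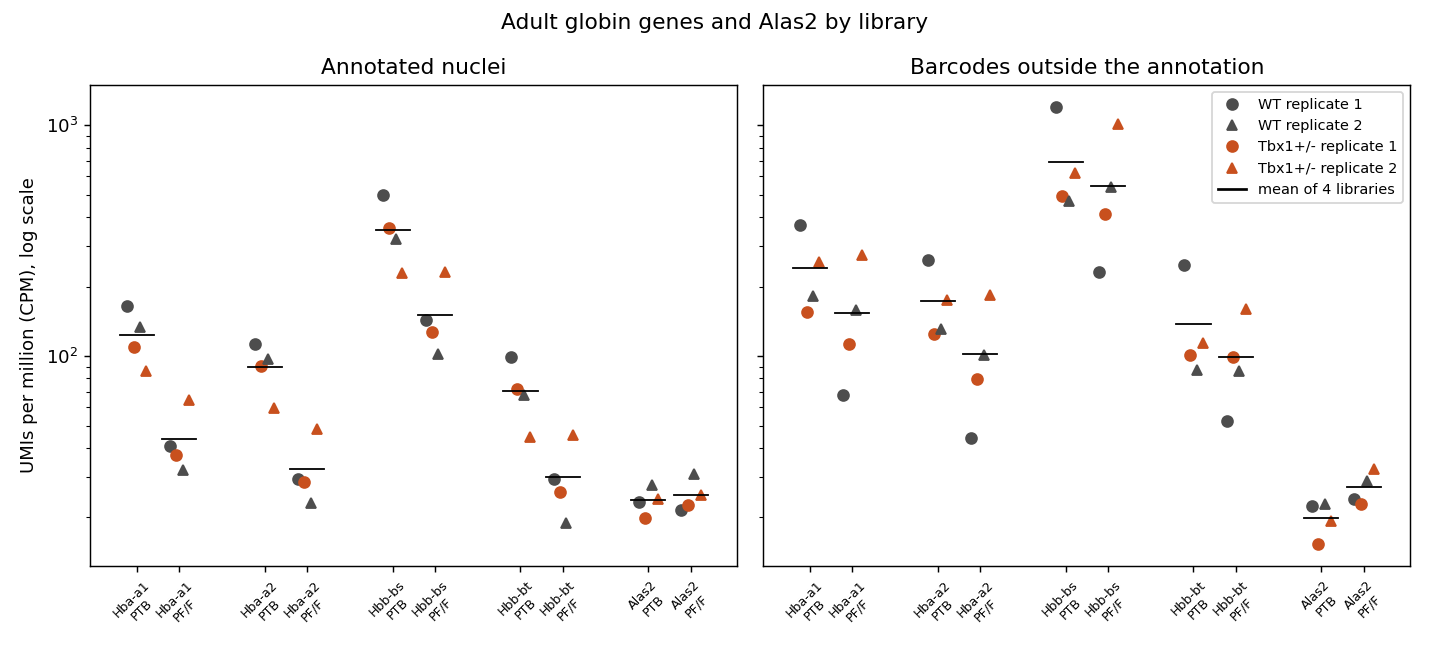
UMIs per 1000000 (log axis) of each of the 5 genes in each library, in annotated nuclei (left) and in barcodes outside the annotation (right), with circles for replicate 1, triangles for replicate 2, grey for WT, orange for Tbx1+/- and black lines for the mean of 4 libraries. The globins sit higher in PTB than in PF/F among annotated nuclei, where Hbb-bs averages 353 and 151 CPM, and Alas2 averages 23.8 and 25.0 CPM.

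Barcodes outside the annotation held more globin per UMI, with a wider spread between libraries. Hba-a1 was there at 369.9 and 182 CPM in WT and 156 and 257 CPM in Tbx1+/- in PTB, and at 67.5 and 158 CPM in WT and 113 and 275 CPM in Tbx1+/- in PF/F. Hbb-bs was at 1203 and 469 CPM in WT and 494 and 621 CPM in Tbx1+/- in PTB, and at 230.5 and 539 CPM in WT and 412 and 1010 CPM in Tbx1+/- in PF/F. PTB WT replicate 1 and PF/F Tbx1+/- replicate 2 were the highest of their tissues for both genes, and the tissues overlapped.

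Hba-a2 ranged there from 125 to 259.8 CPM in PTB and from 44.1 to 184 CPM in PF/F, and Hbb-bt from 87.1 to 249 CPM and from 52.6 to 159 CPM, with the highest library in each tissue as for Hbb-bs. Alas2 was at 22.4 and 22.9 CPM in WT and 15.4 and 19.2 CPM in Tbx1+/- in PTB, and at 24.0 and 28.7 CPM in WT and 22.9 and 32.5 CPM in Tbx1+/- in PF/F. The globins thus summed to 1248 ± 573 CPM in PTB and 903 ± 525 CPM in PF/F outside the annotation, with Alas2 at 20.0 ± 3.48 CPM and 27.0 ± 4.41 CPM.

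Of the barcodes outside the annotation, those with few detected genes mostly had the higher globin levels. Outside the annotation, barcodes under 1000 detected genes held 2969 to 12396 CPM of the 4 globins in PTB and 838 to 11042 CPM in PF/F. Those with 1000 genes or more held 653 to 1257 CPM and 133 to 888 CPM. Within each of the 8 libraries but PF/F WT replicate 2 the barcodes with few genes were the higher. These levels include the few barcodes in which globins made up 5% or more of all UMIs, and levels without them are not given here. Such barcodes, annotated ones included, held 44.8% of all globin UMIs in PTB WT replicate 1 and 49.7% in PF/F Tbx1+/- replicate 2. Alas2 in the barcodes under 1000 genes was at 15.6 to 43.6 CPM in PTB and 11.5 to 27.7 CPM in PF/F.

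The globins kept similar proportions to each other in annotated nuclei and outside, and Alas2 did not keep pace with them. The α-globins made up 28.9 to 37.2% of globin UMIs in annotated nuclei and 27.3 to 37.0% outside the annotation. Hbb-bs made up 82.6 to 84.4% of β-globin UMIs in annotated nuclei and 80.6 to 86.4% outside. For each Alas2 UMI there were 5.74 to 37.7 globin UMIs in annotated nuclei and 16.4 to 92.9 outside.

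The tissues were compared by fitting edgeR's quasi-likelihood model to the summed counts of all genes, where a gene was called at an adjusted p under 0.05 and more than a 1.5-fold change. With sums over barcodes, fewer cells of a type and less RNA per cell cannot be told apart. All 4 globins were called higher in annotated PTB nuclei than in PF/F, a count to be read against the 60.4% of 22148 genes that were called in that comparison and the 28.5% called in that direction. The log2 difference was 1.48 ± 0.20 (SE) for Hba-a1, which is 2.79-fold, with an edgeR adjusted p of 0.000193. For Hba-a2 it was 1.48 ± 0.21 with an edgeR adjusted p of 0.000294. The β-globins differed by 1.22 ± 0.26 (Hbb-bs, edgeR adjusted p = 0.00289) and 1.24 ± 0.26 (Hbb-bt, edgeR adjusted p = 0.00243). Alas2 differed by -0.08 ± 0.14 with an edgeR adjusted p of 0.624, less than its spread between libraries. The median log2 difference over all tested genes was -0.04.

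Outside the annotation none of the 5 genes was called between the tissues, where 51.1% of 21197 genes were called and 27.3% were called higher in PTB. The log2 differences were 0.65 ± 0.40 for Hba-a1, 0.77 ± 0.38 for Hba-a2, 0.35 ± 0.42 for Hbb-bs and 0.47 ± 0.35 for Hbb-bt, with edgeR adjusted p from 0.111 to 0.497. Alas2 differed by -0.49 ± 0.15 with an edgeR adjusted p of 0.0210, which was 1.41-fold and so under the fold limit. Leaving out 1 library moved Hba-a1 to between 0.33 (without PTB WT replicate 1) and 1.04 (without PF/F Tbx1+/- replicate 2), and Hba-a2 to between 0.45 and 1.13 without the same libraries. Without PTB WT replicate 1 the β-globin differences were -0.10 (Hbb-bs) and -0.034 (Hbb-bt), and without PTB WT replicate 2 Hbb-bt was called, at 0.76 (edgeR adjusted p = 0.0230).

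Between the genotypes no member was called in either tissue, and 0% of all tested genes were called in each of the 4 comparisons. In annotated PTB nuclei each globin was lower in Tbx1+/- than in the WT library of the same replicate number. The β-globins and Alas2 overlapped between the genotypes. Hba-a1 differed by -0.61 ± 0.16 on the log2 scale, with an edgeR unadjusted p of 0.0122 and an adjusted p of 1.00. The others were at -0.49 ± 0.22 (Hba-a2), -0.49 ± 0.30 (Hbb-bs), -0.52 ± 0.29 (Hbb-bt) and -0.21 ± 0.15 (Alas2). Leaving out 1 library moved Alas2 to between -0.35 and -0.077. Muscle and neuron markers in the same nuclei had median log2 differences of -0.32 and -0.20, and lymphocyte and neutrophil markers 0.27 and 0.16. Their part in the result was not tested. Without PTB WT replicate 1 the β-globin differences were -0.12 and -0.21, and without PTB Tbx1+/- replicate 2 the other globins than Hba-a1 were at -0.22 to -0.19. Of 20250 genes tested, 0 were called by edgeR and 0 by DESeq2, and 217 and 115 had an unadjusted p under 0.05.

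In annotated PF/F nuclei the fitted differences of the globins were above 0, and the genotypes overlapped for all 5 genes. At replicate 1 each globin was lower in Tbx1+/- than in WT, and at replicate 2 each was higher. The order at replicate 1 rested on a single nucleus of PF/F WT replicate 1 with 1751 globin UMIs, without which the 4 globins summed to 201 CPM there against 218 CPM in Tbx1+/- replicate 1. The log2 differences of Tbx1+/- from WT were 0.50 ± 0.29 for Hba-a1, 0.57 ± 0.29 for Hba-a2, 0.57 ± 0.33 for Hbb-bs, 0.59 ± 0.34 for Hbb-bt and -0.12 ± 0.19 for Alas2, all with an edgeR adjusted p of 1.00. Without PF/F Tbx1+/- replicate 2 the globin differences were 0.037 to 0.13, so their size rested on that library. Endothelial markers in the same nuclei summed to 13.8 and 29.2 CPM in WT and 20.4 and 32.0 CPM in Tbx1+/-, with a median log2 difference of 0.39. Neutrophil markers, at 3.40 to 5.92 CPM, had a median of 0.49 over the 4 of 7 tested. Megakaryocyte, lymphocyte and erythroid markers had medians of -0.19, -0.18 and -0.30. The part of these lists in the result was not tested. Of 20756 genes 0 were called by either tool, with 99 (edgeR) and 29 (DESeq2) at an unadjusted p under 0.05. The difference between the genotype effects of the tissues was tested as an interaction, of which 0% of 22148 genes were called. It was -1.11 ± 0.39 for Hba-a1 (edgeR unadjusted p = 0.0207), -1.07 ± 0.41 for Hba-a2, -1.06 ± 0.52 for Hbb-bs, -1.11 ± 0.51 for Hbb-bt and -0.08 ± 0.29 for Alas2, each with an edgeR adjusted p of 1.00, and DESeq2 called 0 genes (199 and 101 genes at an unadjusted p under 0.05). Without PF/F Tbx1+/- replicate 2 the 4 globins were at -0.61 to -0.51, and without the barcodes of 5% globin or more at -0.61 to -0.55.

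Outside the annotation the 4 globins differed between genotypes by -0.69 to -0.41 in PTB and by 0.81 to 0.92 in PF/F on the log2 scale, and Alas2 by -0.40 ± 0.17 and 0.09 ± 0.23. The smallest unadjusted p of edgeR among the 10 values was 0.0319, for Hbb-bt in PF/F, and every adjusted p was 1.00. In the same PTB barcodes the median log2 difference was -0.33 for the erythroid markers and -0.46 for the megakaryocyte markers, and their part in the result was not tested. No gene of 21166 in PTB or 17233 in PF/F was called by edgeR (123 and 90 at an unadjusted p under 0.05) or by DESeq2 (97 and 15). Without the few barcodes in which globins made up 5% or more of all UMIs, a limit set on the same genes, the PF/F values fell to between -0.24 and -0.10 for the 4 globins, so their direction rested on those barcodes. Without PTB WT replicate 1 the PTB values were 0.21 to 0.33, and without PF/F WT replicate 2 edgeR called Hba-a1 (1.52), Hba-a2 (1.58) and Hbb-bt (1.30) higher in Tbx1+/-, 3 of 78 genes then called. Without PF/F Tbx1+/- replicate 2 the PF/F values were 0.0069 (Hba-a1), 0.14 (Hba-a2), 0.11 (Hbb-bs) and 0.52 (Hbb-bt). Endothelial markers outside the annotation of PF/F moved in part with the globins, at 58.3 and 290 CPM in WT and 131 and 245 CPM in Tbx1+/-, and their part in the result was not tested.

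**Figure D2:**
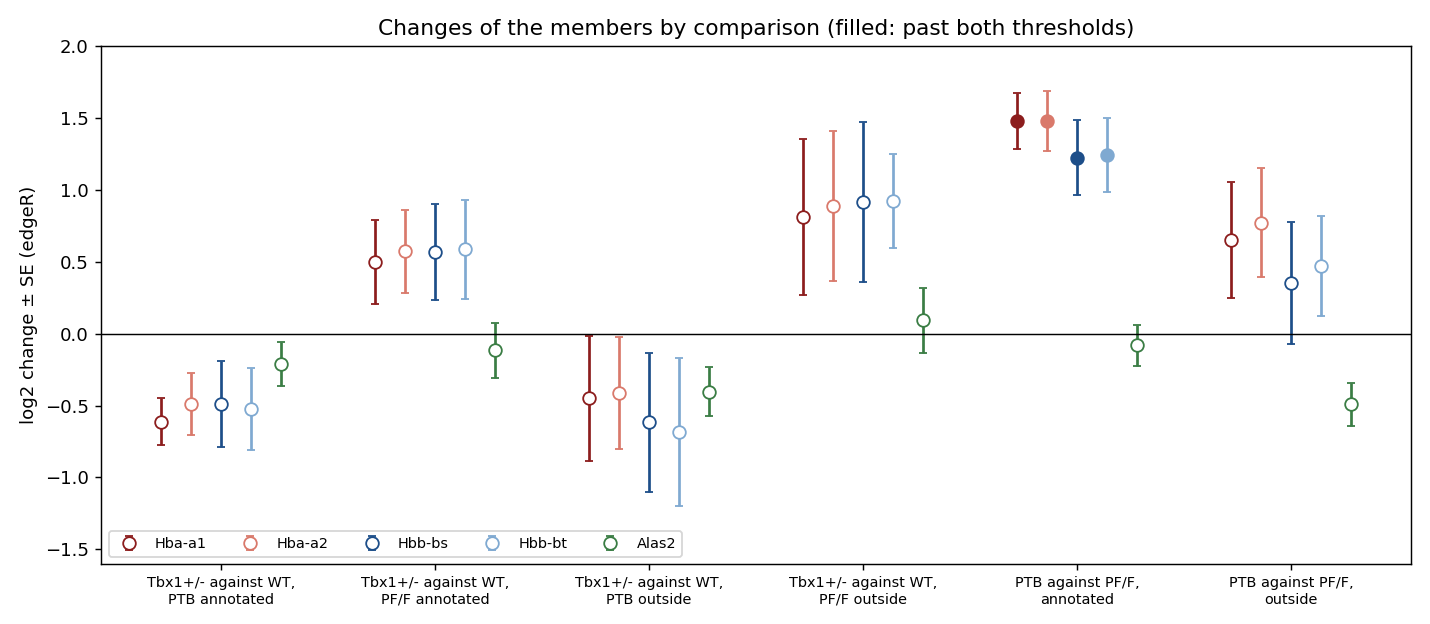
Log2 difference of each gene from edgeR in 6 comparisons, in annotated nuclei and outside the annotation. They set Tbx1+/- against WT in each tissue and PTB against PF/F. Each difference has a standard error computed from its size and its F statistic. Filled points passed an adjusted p of 0.05 and 1.5-fold, which holds for the 4 globins between the tissues in annotated nuclei and for no genotype comparison.

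A small number of barcodes held a large part of the globin. In 157 of 121135 barcodes (0.130%) the 4 globins made up 5% or more of all UMIs, a limit chosen after the data were examined. They numbered 102 in PTB WT replicate 1, and 9 to 14 in the other PTB libraries. PF/F libraries held 2 to 7 each. These globin-rich barcodes held 31.4% of all globin UMIs, with 44.8% in PTB WT replicate 1 and 49.7% in PF/F Tbx1+/- replicate 2, the libraries that stood highest outside the annotation. In the other 6 libraries the share was 5.64 to 37.9%.

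The globin share of these barcodes ran from 5.00% to 91.8% with a median of 20.5%, and the next barcode under the limit was at 4.99%. Their median depth was 1848 UMIs against 3203 over all barcodes, and their median mitochondrial share was 2.42% against 1.02%. They held 2.75% of Alas2 UMIs and 7.0% of the UMIs of 12 erythroid markers other than globins and Alas2. Per UMI and pooled over libraries both were higher there than in the rest, with Alas2 at 644 CPM against 22.6 CPM and the erythroid markers at 1355 CPM against 17.9 CPM. PTB WT replicate 1 supplied 194 of the 323 Alas2 UMIs and 588 of the 680 erythroid marker UMIs. The marker level in these barcodes was 1799 to 2214 CPM in PTB WT replicate 1, PTB Tbx1+/- replicate 1 and PF/F WT replicate 1, and 0 to 358 CPM in the other 5 libraries. In PF/F WT replicate 2 neither Alas2 nor the markers had a UMI in its 2 such barcodes. An Alas2 UMI was seen in 108 of the 157 and an erythroid marker UMI in 69.

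**Figure D3:**
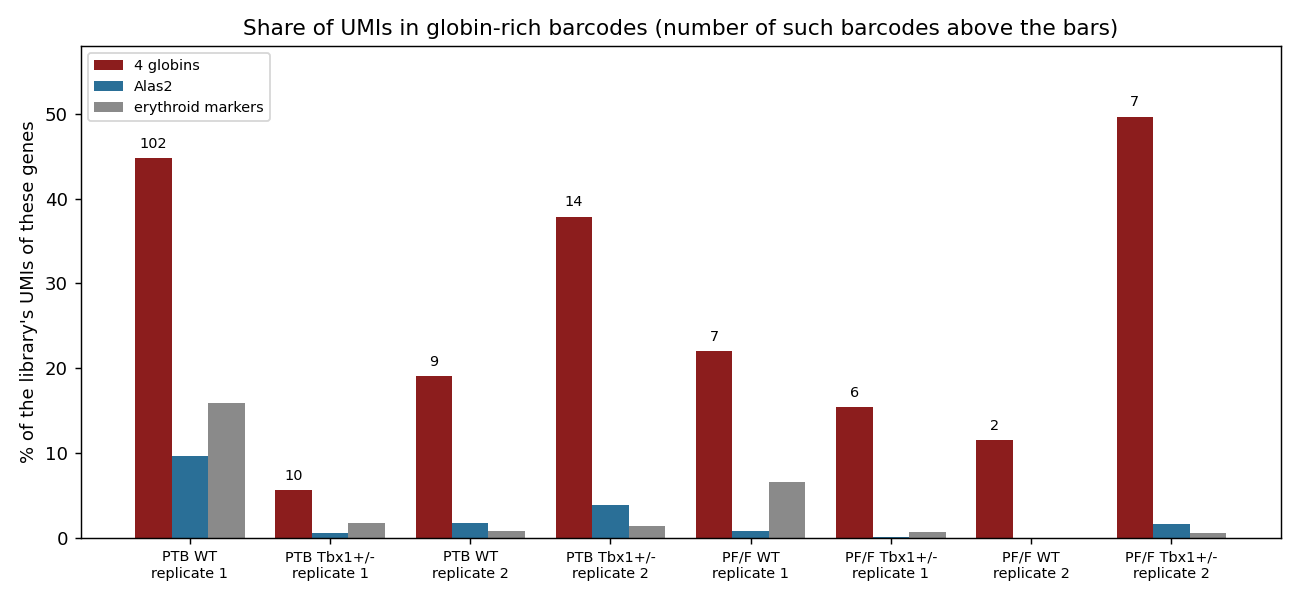
Share of each library's UMIs (percent, bars from 0) of the 4 globins, of Alas2 and of the 12 erythroid markers that lay in barcodes with 5% or more globin, with the number of such barcodes above the bars. The globin bars reach 44.8% in PTB WT replicate 1 and 49.7% in PF/F Tbx1+/- replicate 2, and the Alas2 bars stay at 9.58% or less.

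Of the globin-rich barcodes 18 carried a cell type in the annotation, 14 in PTB and 4 in PF/F. A nucleus annotated as Matured chondrocyte in PTB WT replicate 2 had 4737 globin UMIs of 10361 (45.7%), with 16 Alas2 UMIs and 8 erythroid marker UMIs. A nucleus annotated as Endothelial in PF/F Tbx1+/- replicate 2 had 4569 of 11008 (41.5%), with 3 Alas2 UMIs and no erythroid marker UMI. Single nuclei of this kind set the mean of their type, and each level by type is therefore given without them.

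Without the globin-rich barcodes the 4 globins summed to 408 to 717 CPM in annotated PTB nuclei and to 176 to 261 CPM in PF/F nuclei. The tissue difference was then 1.52 for Hba-a1, 1.51 for Hba-a2, 1.31 for Hbb-bs and 1.30 for Hbb-bt on the log2 scale, with the barcodes left out by the same genes that were fitted. The genotype differences in annotated PTB nuclei were -0.30, -0.15, -0.19 and -0.17, and those in PF/F nuclei 0.31, 0.41, 0.35 and 0.37, all smaller in size than with them. Leaving out instead the 8% of nuclei with the most UMIs in each library gave 0.19, 0.25, 0.18 and 0.21 in PF/F.

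Globin UMIs were spread over all annotated types, and most types of a tissue differed from their neighbours by less than the spread between libraries. In PTB the sum of the 4 globins without globin-rich nuclei was lowest in Osteoclast, at 401 ± 153 CPM (SD, n = 4), followed by CT3 at 486 ± 91.5 CPM and Matured osteoblasts/osteocyte at 488 ± 131 CPM, with names as the annotation gives them. CP5 (495 CPM), CP2 (531 CPM), hypertrophic chondrocyte/Osteoblasts (543 CPM), Osteoblasts (544 CPM), CP4 (561 CPM), CP1 (564 CPM), CT4 (581 CPM), CP3 (598 CPM), CP6 (601 CPM) and CT2 (627 CPM) came next. CT1 at 756 ± 89.6 CPM and Matured chondrocyte at 885 ± 118 CPM were highest. Neighbours in this order differed by less than the larger of their SDs, except CT1 over CT2 and Matured chondrocyte over CT1. Types come from the same libraries, so the SD also holds differences between libraries that the types share. Among the steps within the SD, only CP5 to CP2, CP2 to hypertrophic chondrocyte/Osteoblasts and Osteoblasts to CP4 kept their order in all 4 libraries. With its globin-rich nuclei Matured chondrocyte averaged 4092 ± 6111 CPM, since PTB WT replicate 2 was at 13257 CPM with them and 870.5 CPM without.

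In PF/F the order ran from Progenitors at 101 ± 39.4 CPM, Purkinje at 106 ± 17.2 CPM and GABA.interneuron at 114 ± 25.7 CPM to Endothelial at 576 ± 302 CPM. Between them lay RL.early (177 CPM), Diff.GABA.interneuron (178 CPM), Oligodendrocyte (182 CPM), Astroglia (209 CPM), Diff.Granule Neuron (220 CPM), GABA.interneuron.progenitor (230.5 CPM) and GNP (272 CPM). Immune (294 CPM), Pericyte (297 CPM) and Meningeal (323 CPM) followed. Among the types named, only the step from GABA.interneuron to RL.early exceeded the larger SD of the pair. Endothelial nuclei line the vessels that carry red cells, and without globin-rich nuclei they were at 291 and 958 CPM in WT and at 672 and 384 CPM in Tbx1+/-, so the genotypes overlapped. With them Endothelial in Tbx1+/- replicate 2 was at 19452 CPM.

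**Figure D4:**
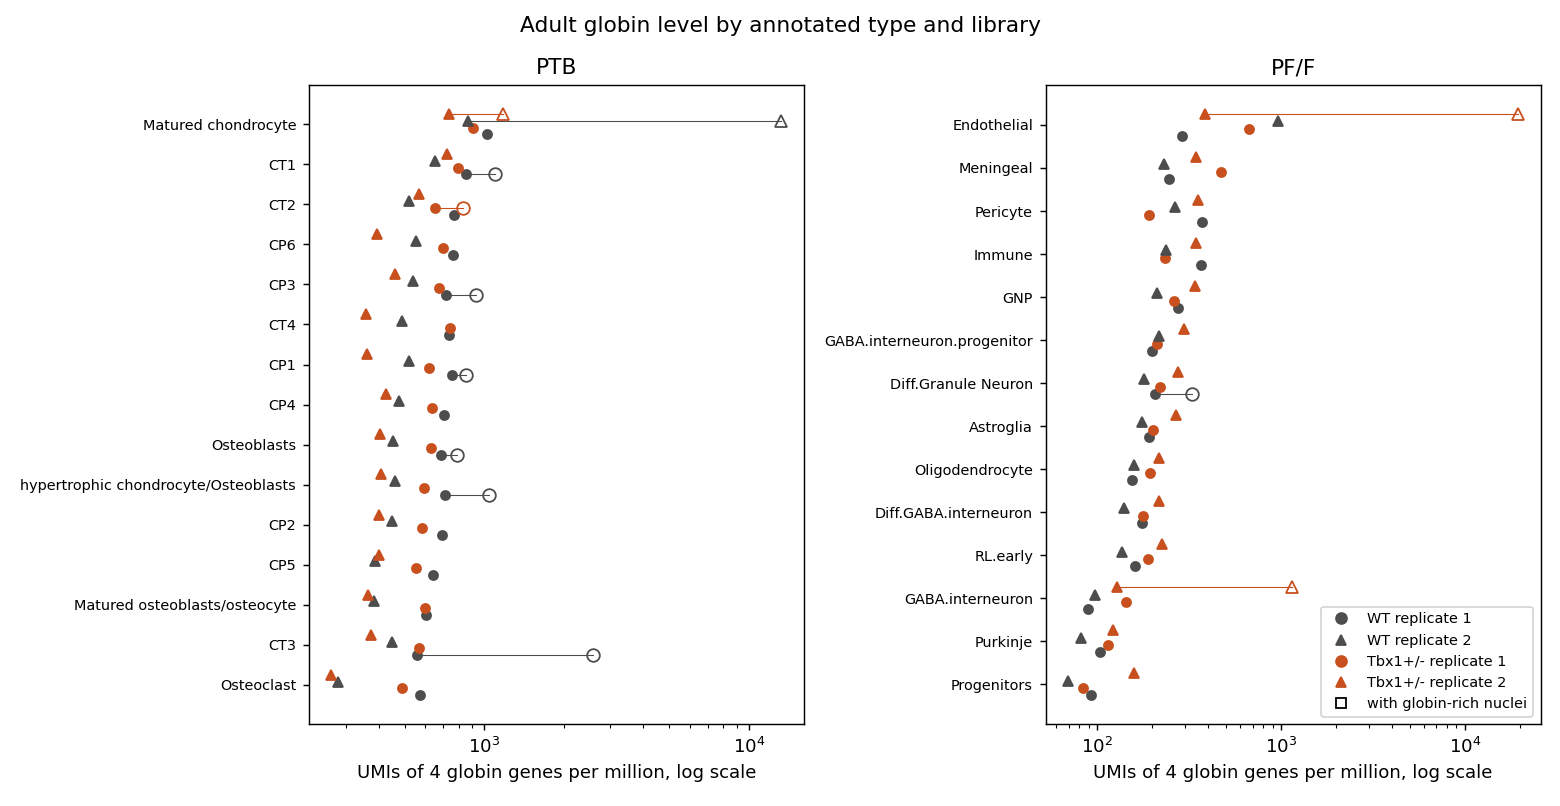
Summed level of the 4 globins (UMIs per 1000000, log axis) by annotated type and library of PTB and PF/F, for the types named in the text, with filled symbols without globin-rich nuclei and open symbols, joined to them, with those nuclei. Without globin-rich nuclei the type means run from 401 to 885 CPM in PTB and from 101 to 576 CPM in PF/F, and globin-rich nuclei pull out single values such as Matured chondrocyte of PTB WT replicate 2 at 13257 CPM and Endothelial of PF/F Tbx1+/- replicate 2 at 19452 CPM.

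The same types stood lowest and highest in PTB for each single globin, and Endothelial stood highest for each in PF/F, while the types between changed places. In PTB, without globin-rich nuclei, Hba-a1 was at 79.5 ± 25.0 CPM in Osteoclast and 175 ± 30.4 CPM in Matured chondrocyte, and Hbb-bs at 220.1 ± 91.1 CPM and 482 ± 86.5 CPM. In PF/F, Hba-a1 was at 19.4 ± 2.67 CPM in Purkinje and 96.96 ± 54.4 CPM in Endothelial, and Hbb-bs at 60.7 ± 10.5 CPM and 321 ± 196 CPM.

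Across the types of a library the summed globin level without globin-rich nuclei was higher where the median UMI count per nucleus was lower, with Spearman's rho from -0.92 to -0.67 over 12 to 15 types of 50 nuclei or more (-0.91 to -0.33 with those nuclei). The types of a library share its preparation, and the UMI count is also the denominator of the level, so this is a description. For Alas2 the same measure ran from -0.20 to 0.47. When each nucleus was thinned to 1000 UMIs, which left out 0 nuclei, 33.9 to 56.7% of annotated PTB nuclei and 10.3 to 35.0% of PF/F nuclei kept a globin UMI, as means of 4 libraries for each type, against 86.7 to 91.7% and 43.1 to 66.3% unthinned. Purkinje cells, which are not of the red cell lineage, are among these types, and the part of free RNA in the globin UMIs of annotated nuclei was not tested.

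Alas2 varied over types in another order than the globins. In PTB, without globin-rich nuclei, it was lowest in CT1 at 12.4 CPM and highest in Osteoblasts at 30.6 CPM, and each neighbour in the order lay within the larger SD of the next. Osteoblasts lay near the middle of the order for the globins, and CT1 near its top. In PF/F the Alas2 level was 32.2 ± 5.48 CPM in Purkinje, a type at the low end for globins, 33.1 ± 5.84 CPM in Meningeal and 18.7 ± 3.32 CPM in Oligodendrocyte. Pericyte had 1 Alas2 UMI in its 74 nuclei and was at 0 in 3 libraries, where a count of 0 allows up to 44.4 to 86.1 CPM.

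**Figure D5:**
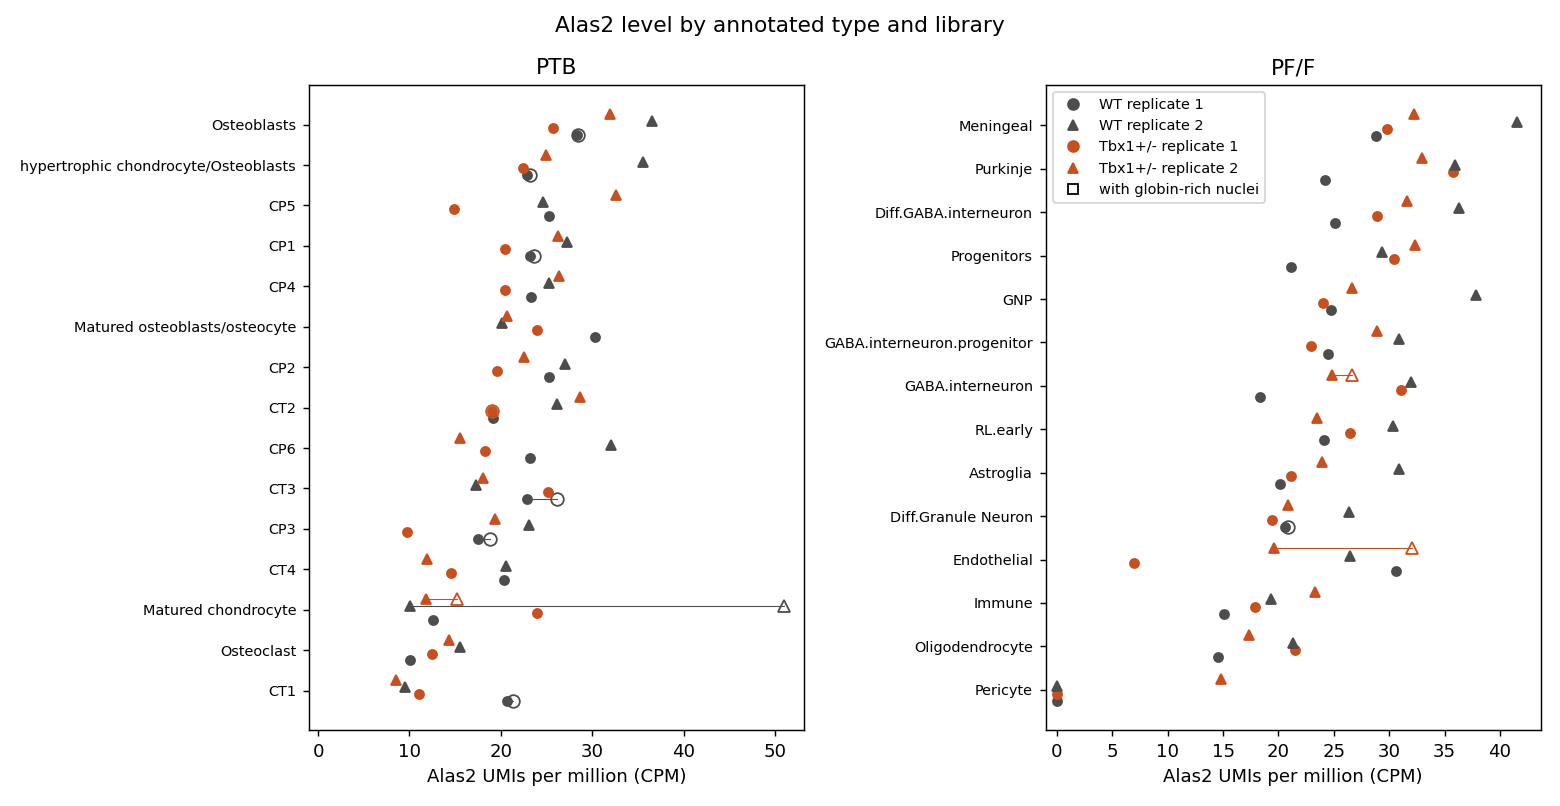
Alas2 level (UMIs per 1000000, linear axis from 0) by annotated type and library of PTB and PF/F, for the same types, with filled symbols without globin-rich nuclei and open symbols with them. Most types lie between 10 and 40 CPM, and the globin-poor Purkinje type averages 32.2 CPM.

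Among 9701 genes with enough UMIs in PTB, the genes whose log2 levels over 60 sums of a type and a library were most like the summed members were Zhx1 (Pearson's r = 0.700), Psmc3 (0.681), Cmss1 (0.676), Map1a (0.664) and Hsp90aa1 (0.657). In PF/F, over 64 sums and 10361 genes, they were Bsg (0.725), Insr (0.663), Slc3a2 (0.657), Slc39a10 (0.644) and Cldn5 (0.637). Bsg and Cldn5 encode proteins abundant in brain endothelium, the type pulled up by globin-rich nuclei. Each member is part of that sum, Hbb-bs the largest part, so its own r of 0.996 in PTB and 0.989 in PF/F was set by the overlap, and that of Alas2 was 0.219 and -0.03. Without the globin-rich nuclei the most alike genes were others, led in PTB by mt-Nd5 (0.865), Rps19 (0.828) and Tnnt3 (0.826) and in PF/F by Map3k3 (0.817), Slk (0.801) and Fth1 (0.780). The sums share libraries and depth, and no test was made of these values.

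Barcodes with the marker set of erythroid cells were present in PTB and rare in PF/F. They were defined as having at least 3 UMIs of the 12 erythroid markers and more of them than of any other marker list, and numbered 45 and 11 in the WT and 18 and 13 in the Tbx1+/- libraries of PTB and 1 in each PF/F library. In PTB 84 of these 87 were outside the annotation, and they held a median of 21 erythroid marker UMIs (8 to 81). Alas2 was at 556 CPM in them against 21.4 CPM in all other PTB barcodes, and the 4 globins at 27776 CPM against 949 CPM. The globin level in them was 51812 CPM in PTB WT replicate 1 and 6000 to 7989 CPM in the other PTB libraries. They held 2.46% of globin UMIs in PTB, or 0.620% without PTB WT replicate 1, and the 4 of PF/F 0.742%. Their median globin share was 0.691%, and 79 of the 87 were under 5% globin, and 9 of the 157 globin-rich barcodes of both tissues belonged to this class. The lowest marker count in PTB was 8, so the lead over other lists, not the minimum of 3, decided membership there. Osteoblast and chondrocyte markers, at 5205 to 10773 CPM outside the annotation of PTB and 60.1 to 78.2 CPM in PF/F, can outrank erythroid markers. Numbers and shares of this class may therefore be too low, and were not counted at like thresholds in the 2 tissues.

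The 12 erythroid markers, which encode surface, cytoskeletal and regulatory proteins of red cells and their precursors, were all detected in both tissues. They summed to 9.13 to 20.5 CPM in annotated PTB nuclei and 25.0 to 62.6 CPM outside, against 4.70 to 6.98 CPM and 7.25 to 8.98 CPM in PF/F. In annotated nuclei 9 of 12 were called higher in PTB by edgeR and 1 lower, beside 60.4% of all genes called and 28.5% called higher, with a median log2 difference of 2.50. Slc4a1, the anion exchanger of the red cell membrane, was at 2.68 ± 1.36 CPM in PTB and 0.14 ± 0.06 CPM in PF/F (4.21 ± 0.54 on the log2 scale, edgeR adjusted p = 0.000161). Ermap, an erythroid membrane protein, differed by 2.57 ± 0.32 (edgeR adjusted p = 0.000138). Rhd, a blood group protein of the red cell membrane, differed by 0.57 ± 0.18 and was under the fold limit, and Klf1, an erythroid transcription factor also listed among the regulators of globin genes, was the marker called lower. Outside the annotation 10 of 12 were called higher in PTB and none lower, beside 27.3% of all genes called higher, with a median of 3.18.

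The embryonic and minor globin genes were close to absent. In annotated PTB nuclei the list held 9 UMIs of Hbq1b, 7 of Hbq1a and 1 of Hbb-y over 4 libraries, with Hba-x, Hbb-bh1 and Hbb-bh2 at 0. In PF/F it held 5 UMIs of Hbq1a, 4 of Hbq1b, 2 of Hbb-y and 1 of Hbb-bh2. None passed the filter on low counts, so none was tested.

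The genes of haem synthesis and its mitochondrial supply summed to 195 to 207 CPM in annotated PTB nuclei and 153 to 167 CPM in PF/F. Of 11 tested, 5 were called higher in PTB by edgeR (Alad, Cpox, Fech, Ppox and Slc25a37) and 1 lower, beside 60.4% of all genes called and 28.5% called higher, with a median log2 difference of 0.52. Fech, ferrochelatase, which inserts iron into the haem ring, was at 44.6 ± 1.67 CPM and 23.2 ± 0.10 CPM (0.94 ± 0.07, edgeR adjusted p = 8.0e-06). Alas1, the synthase of non-erythroid cells, was at 19.7 ± 1.46 CPM and 19.6 ± 0.76 CPM, with a difference of 0.00.

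The genes of haemoglobin, haem and iron clearance, which serve macrophages that take up red cells, summed to 320 to 352 CPM in annotated PTB nuclei and 125 to 138 CPM in PF/F. Of 9 tested, 7 were called higher in PTB by edgeR and none lower, beside 28.5% of all genes called higher, with a median of 1.69. Slc40a1, the iron exporter ferroportin, was at 35.4 ± 1.40 CPM and 4.15 ± 1.44 CPM (3.09 ± 0.25, edgeR adjusted p = 8.56e-06). Lrp1, a receptor that takes up haem bound to hemopexin among many other ligands, was at 194 ± 12.9 CPM and 60.2 ± 3.60 CPM (1.69 ± 0.09, edgeR adjusted p = 5.89e-07). Hmox2, the constitutive haem oxygenase, differed by 0.42 ± 0.07 and was under the fold limit.

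The transcriptional regulators of globin genes summed to 164 to 182 CPM in annotated PTB nuclei and 185 to 209 CPM in PF/F, and 4 of 10 were called higher in PTB by edgeR and 4 lower, with a median of -0.39, where 6314 of 22148 genes were called higher and 7070 lower. Bcl11a, a repressor of embryonic and fetal globin genes that neurons also use, was at 34.1 ± 1.44 CPM in PTB and 72.7 ± 12.8 CPM in PF/F (-1.10 ± 0.14, edgeR adjusted p = 0.000163). Zbtb7a, another repressor of those genes, was at 66.9 CPM and 38.6 CPM (0.79 ± 0.11, edgeR adjusted p = 0.000201). Gata1, the master regulator of erythroid genes, was at 0.19 CPM and 0.24 CPM and was not called. Outside the annotation 5 of 11 genes of haem synthesis, 7 of 9 of clearance and 2 of 10 regulators were called higher in PTB, and 2 regulators lower, beside 51.1% of all genes called and 27.3% called higher.

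Between genotypes no gene of these lists was called in any of the 4 comparisons, by edgeR. In annotated PTB nuclei the median log2 difference of Tbx1+/- from WT was 0.04 for haem synthesis, 0.05 for clearance, 0.10 for the regulators and -0.07 for the erythroid markers. In annotated PF/F nuclei the medians were -0.01, 0.01, 0.00 and -0.30, the last over the 5 of 12 markers that could be tested. The globins in the same nuclei were at -0.61 to -0.49 in PTB and 0.50 to 0.59 in PF/F.

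Neutrophil, megakaryocyte, endothelial and muscle markers were, like the globins, higher in annotated PTB nuclei, and their part in the result was not tested. Neutrophil markers summed to 17.6 to 53.8 CPM in annotated PTB nuclei and 3.40 to 5.92 CPM in PF/F, and all 6 tested of 7 were called higher in PTB by edgeR, beside 60.4% of all genes called and 28.5% called higher, a background that holds for the next lists too. Megakaryocyte markers summed to 11.2 to 21.4 CPM and 3.87 to 6.28 CPM, with 2 of 4 called higher and none lower. Endothelial markers summed to 52.5 to 63.7 CPM and 13.8 to 32.0 CPM, with 2 of 3 called higher and none lower. Muscle markers summed to 77.0 to 203 CPM and 23.9 to 26.9 CPM, with 3 of 5 called higher and 1 lower. Macrophage markers summed to 110 to 134 CPM and 60.7 to 77.3 CPM, but of 6 only 2 were called higher and 1 was called lower, with a median log2 difference of 0.16. Lymphocyte markers were at 3.66 to 4.86 CPM and 3.80 to 4.67 CPM, overlapping between the tissues, and of 4 tested 2 were called higher and 1 lower, with a median log2 difference of 1.22.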

How the data were processed

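The 5 genes and all gene lists were chosen with earlier results of these data known. Nuclear RNA of 8 pooled samples was profiled with 10x snRNA-seq. The authors aligned reads and made the deposited UMI count matrices, which are raw counts per gene and barcode, with Cell Ranger 7.0.0 against mm10 (submitters' processing notes and study methods). Reads in introns were counted too (study methods). Aside from counts, the deposited annotations name a type for 79313 barcodes, and that of PF/F gives expected counts per nucleus after the authors' SoupX correction for free RNA, which had removed 19.3 to 25.8% of UMIs. Corrected counts per gene were not analysed here, so all levels hold uncorrected free RNA. The authors kept nuclei with at least 1000 genes and dropped outliers in UMIs, genes and mitochondrial share. Columns left unmatched to a sample numbered 0.

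In each library UMIs were added up over all annotated nuclei, over each annotated type and over the other barcodes. Differences were fitted with edgeR 4.0.16 (quasi-likelihood, TMM, filterByExpr, Benjamini-Hochberg adjustment over all tested genes, R 4.3.3), with 2 libraries a group in each tissue, and 4 a tissue for the tissue contrast, which averaged both genotypes. DESeq2 1.42.0 was the alternative. Tests within a tissue used that tissue's libraries only. Each library is a pool of mice, and p-values measure the spread between libraries. The main fits had no term for the replicate number, so that spread includes what same-numbered libraries share. A fold called required an adjusted p under 0.05 and 1.5-fold. Barcodes were assigned to marker lists by most UMIs, with at least 3. No doublet caller was run, and the 8% of nuclei with the highest UMIs were left out as an alternative. In simulated data with 200 genes changed by a log2 value of 1, edgeR called 33% of them in the genotype comparison of annotated PTB nuclei, 30% in that of PF/F and 65% in that of tissues, but 0.5% and 13% in the genotype comparisons outside the annotation (PTB and PF/F), 46% between tissues there and 0.5% for the interaction. DESeq2 called 40%, 24% and 29.5% of them in the genotype comparisons outside the annotation (PTB and PF/F) and in the interaction, together with 42, 24 and 25 unchanged genes.

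The text names the 5 members, up to 4 genes of each list by highest mean level, the 5 genes most alike to the summed members in each tissue among those with 2000 UMIs or more, and the 10 leading genes of erythroid-marker barcodes, and some items that this rule covers are not reported here. Alad, Ppox, Klf1 and Gata1 were named outside this rule, after their values were seen. The listed genes Ahsp and Hbb-bh0 were not analysed here. Gene positions are from GENCODE vM21 (99.8% of features matched) and promoters from RefSeq. Limits for a count of 0 (3 counts) cover counting error only. Python 3.11.15 and scipy 1.17.1 were used for sums.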

Additional observations from a re-analysis of the deposited data

How the results depend on the processing

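Of 445 alternative values for the 5 genes in 7 comparisons (other normalization, filter, test, barcodes or libraries), 415 kept their direction and their side of the threshold, 8 newly passed it and 22 changed direction, all 22 among results that were not called. The higher level of the 4 globins in annotated PTB nuclei was called under all 15 alternatives, with adjusted p up to 0.0129. Outside the annotation the genotype differences of PF/F turned to -0.24 (Hba-a1), -0.17 (Hba-a2), -0.15 (Hbb-bs) and -0.10 (Hbb-bt) without globin-rich barcodes, an alternative chosen after the data were examined, and to -0.29 (Hba-a1), -0.040 (Hba-a2) and -0.12 (Hbb-bs) with at least 1000 detected genes, where PTB Hba-a2 turned to 0.021. Between tissues outside the annotation, 2 members were called without globin-rich barcodes, which were left out by the level of these same genes so that the calls support no tissue difference, and 1, Alas2, with at least 1000 genes (-0.62, edgeR adjusted p = 0.00551). Erythroid-marker barcodes of PF/F numbered 9 with 4.18% of globin UMIs at a minimum of 2 marker UMIs. The causes were not tested.

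Leaving out each library in turn gave 0 to 3 called members for genotype outside the annotation of PF/F (3 without PF/F WT replicate 2), and 0 to 1 between tissues there (1 without PTB WT replicate 2 and 1, Alas2 at -0.65, without PF/F Tbx1+/- replicate 1). Differences between genotypes in annotated PTB nuclei ranged from -0.79 to -0.45 (Hba-a1), -0.82 to -0.22 (Hba-a2), -0.85 to -0.12 (Hbb-bs) and -0.90 to -0.21 (Hbb-bt), and in PF/F nuclei over the 4 globins from 0.037, without Tbx1+/- replicate 2, to 0.94. Those of Alas2 ranged from -0.35 to 0.15 in annotated PF/F nuclei and from -0.20 to 0.32 outside, and in PTB outside the annotation those of the globins from -0.90 to 0.21 (Hba-a1), -0.85 to 0.22 (Hba-a2), -1.17 to 0.28 (Hbb-bs) and -1.28 to 0.33 (Hbb-bt), each highest without PTB WT replicate 1. In PF/F outside the annotation the globins ranged from 0.0069 to 1.63, each lowest without Tbx1+/- replicate 2. Between tissues they ranged from -0.22 to 0.075 for Alas2 in annotated nuclei, and outside from 0.33 to 1.04 for Hba-a1, 0.45 to 1.13 for Hba-a2, -0.10 to 0.74 for Hbb-bs and -0.034 to 0.76 for Hbb-bt. The interaction ranged from -0.39 to 0.18 for Alas2 and from -1.49 to -0.51 over the 4 globins. Erythroid-marker barcodes numbered 42 to 76 in PTB (42 without PTB WT replicate 1) with 0.620 to 2.88% of globin UMIs, and 3 in PF/F each time with 0.137 to 1.21%. The mean globin level over types was 684 to 968 CPM in PTB (844 with all libraries) and 221 to 657 CPM in PF/F (546), and without globin-rich nuclei 577 and 229.8 CPM. In PF/F it was 255 CPM without the 8% of nuclei with the highest UMIs.

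Same-numbered libraries deviated together from their group means over genes (Pearson's r = 0.478 and 0.550 in annotated PTB and PF/F nuclei, 0.486 and 0.464 outside), genes not being independent. The labels do not say that a number marks a batch. With the replicate number as a block the calls of members were 0 in each genotype comparison and 4 between tissues in annotated nuclei, as without it, and genes at an unadjusted p under 0.05 went from 217 to 1043, 99 to 626, 123 to 499 and 90 to 321. Pooled libraries, 2 a group, and the small share of changes that edgeR recovered in simulated data outside the annotation limit what the genotype comparisons can show.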

Other observations

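The erythroid-marker barcodes of PTB, pooled over libraries, were compared with the other barcodes outside the annotation. Among 270 genes with at least 100 UMIs in those outside the annotation, the 10 highest ratios of CPM to all other barcodes outside it included those of 5430401H09Rik (350-fold), F930017D23Rik (298-fold), Ctse (172-fold), Slc25a21 (115-fold), Tspan33 (99.1-fold), Pkhd1l1 (84.5-fold), E2f2 (62.6-fold), Abcb4 (50.6-fold) and Ank1 (43.3-fold). Ank1 encodes the ankyrin of the red cell membrane skeleton, Tspan33 a tetraspanin of erythroid progenitors and E2f2 a cell cycle regulator with a known role in erythroid maturation. These genes were ranked on barcodes chosen by erythroid markers, and no test was made.

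Outside the annotation, barcodes were also sorted by the marker list with the most UMIs. The osteoblast and chondrocyte list was the most abundant in PTB, and free RNA was not removed, so a leading list does not name a cell type. In PTB 28419 led with osteoblast and chondrocyte markers and held the 4 globins at 1363 CPM, or 809 CPM without globin-rich barcodes. Endothelial (543 barcodes), macrophage (692) and osteoclast (841) classes of PTB held 569, 698 and 638 CPM without globin-rich barcodes, and the neuronal class (804) 279 CPM. In PF/F the neuronal class held 238 CPM and the endothelial class (112 barcodes) 5364 CPM, which was 2359 CPM without globin-rich barcodes. The 6583 PF/F barcodes with no leading list held 2307 CPM, or 741 CPM without globin-rich barcodes. By library they held 8257 CPM in Tbx1+/- replicate 2 and 635 to 1077 CPM in the rest. Alas2 was at 588 CPM in the erythroid class of PTB, at 29.9 CPM in the neuronal class of PF/F and at 19.6 CPM in the osteoblast and chondrocyte class of PTB.

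By annotated type, with globin-rich nuclei included, the 4 globins were lower in Tbx1+/- than in the WT library of the same number in 13 of 15 PTB types for replicate 1 and 12 of 15 for replicate 2, and higher in 11 and 16 of 16 PF/F types. Without those nuclei the counts were again 13 and 12 in PTB, and 12 and 15 in PF/F. Types of a library share its preparation, so these are not independent counts. Apex2, whose exons overlap the last exon of Alas2, was at 143 to 162 CPM in annotated PTB nuclei and 71.8 to 87.1 CPM in PF/F. Alas2 was not in that order, and the part of Apex2 reads in the Alas2 counts was not tested.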
